A study of Rattus norvegicus with 40 samples.

Results

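The comparison of T cells isolated from the kidneys of SS/MCW rats at 10 weeks with those at 7 weeks of age was examined gene model by gene model. SS rats are Dahl salt-sensitive rats, an inbred strain in which dietary salt raises blood pressure and injures the kidney. Both groups were SS/MCW rats on low-salt chow, written LS in the labels, so that age is the only labelled difference. The 10-week and 7-week groups had 4 libraries each, and RNA of 3 rats was pooled for every library. These 8 libraries were taken by their labels out of 40 in the series. The other groups used here were circulating T cells of SS/MCW LS rats at 10 and at 7 weeks, and kidney T cells at 10 weeks from SS/MCW rats fed high-salt chow (HS) for 3 weeks, and from SS/CRL rats fed LS or, for 3 weeks, HS. The table holds 31677 gene models, of which 14949 carry a symbol. Expression is the authors' FPKM (fragments scaled to transcript length and library size), 1 value for each group, so no spread among libraries can be printed and their depth is unknown.

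A T cell recognises antigen through a receptor that signals through the CD3 chains, and CD4 or CD8 marks its main classes. In the kidney, T cells lie between the tubules and vessels among resident macrophages, and they are enriched from digested tissue that also contains tubule cells. Along the tubule, the proximal segment takes up most filtered solutes, the thick ascending limb of the loop of Henle reabsorbs salt without water and makes uromodulin, and the collecting duct sets final salt, water and urea excretion.

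The label was checked against defining markers, because genes of other kidney cells were abundant. Cd3e, a CD3 chain, stood at 42.1 FPKM at 10 weeks and 29.7 FPKM at 7 weeks in kidney libraries, and at 691 and 786 FPKM at the same ages in circulating libraries. Over 17 T cell identity genes, the median level in kidney as a percentage of that in blood was 6.24% at 10 weeks and 3.33% at 7 weeks. These percentages come from tables that the authors scaled separately for each age. Umod, which encodes uromodulin, stood at 4043 and 14468 FPKM in kidney at 10 and 7 weeks, and below 1 FPKM in blood. The libraries labelled kidney T cells thus held T cell transcripts at both ages together with abundant tubule transcripts. In such bulk samples, fewer cells of a type and less RNA per cell cannot be told apart.

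A gene model is called here, and is said to have risen or fallen at 10 weeks relative to 7 weeks, where the authors' Cuffdiff q-value was under 0.05. Of 18869 gene models tested, 202 were called, which is 1.07%. Of these, 146 (0.774% of those tested) rose and 56 (0.297%) fell at 10 weeks. Among calls above 0 at both ages, 111 rose with a median log2 fold change of 1.55, and 30 fell with a median of -1.43. The smallest called change was 1.10 upward and -1.11 downward on the log2 scale. Unadjusted, 1500 gene models (7.95%) had p under 0.05. Standard errors given below are on the log2 scale and were obtained from the deposited test statistic by dividing the log2 fold change by it. That statistic had a median size of 2.03 among the calls, and of the 141 calls that have one, none held when a normal p was taken from it in place of the p that the authors deposited. The other 61 calls were listed at 0 at 1 age and have no such statistic. Over all 18514 tested gene models with a statistic, its median size was 0.376. Of these, 160 (0.864%) reached the size at which a normal p falls under 0.05. By the deposited p, that share was 7.95% of the models tested. The statistic thus did not share the scale of the deposited p, so a normal p cannot decide whether the 141 calls hold. Which scale suits these data was not tested, and the standard errors are not calibrated. The p-values are those of 1 table whose 4 pools a group are not seen singly.

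**Figure D1:**
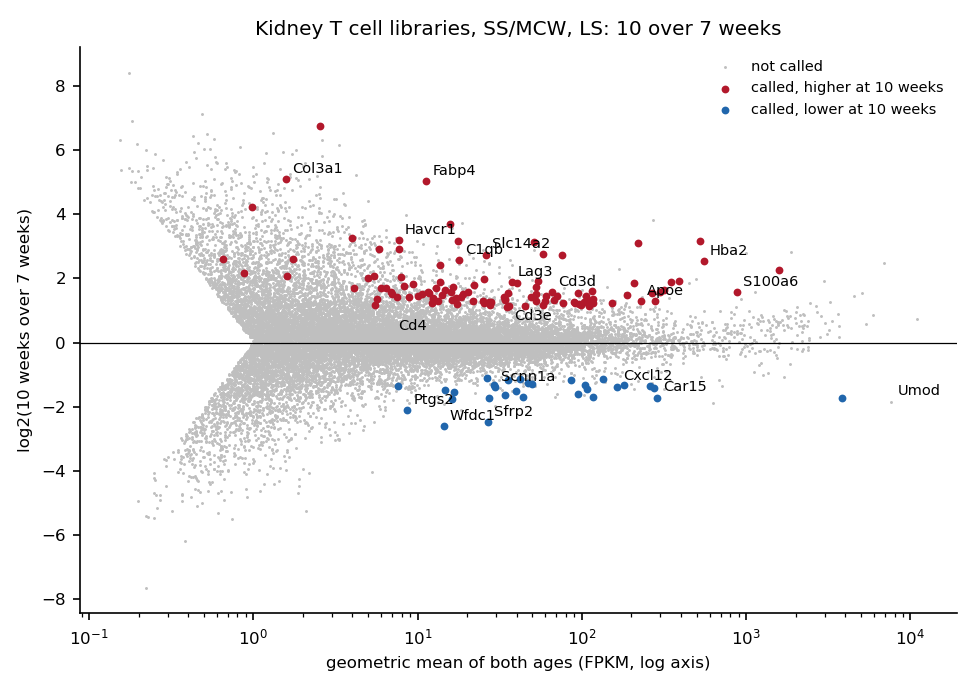
Each point is a gene model with at least 1 FPKM at 1 of the 2 ages and above 0 at both. The horizontal axis is its geometric mean FPKM over both ages on a log axis, and the vertical axis is log2(10 weeks over 7 weeks). Red points are called higher and blue points called lower at 10 weeks, and Umod lies far to the right among grey points at -1.84.

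Among T cell genes, Cd3d and Lag3 passed the test, and most other values were higher at 10 weeks without passing. Of 16 T cell identity genes tested, 1 rose, none fell and 15 did not pass. Cd3d, another CD3 chain (8:47900376-47905113 in rn5, the build of all file coordinates here), stood at 114 FPKM at 10 weeks and 38.4 FPKM at 7 weeks, with a log2 fold change of 1.56 ± 0.91 (standard error) and Cuffdiff q of 0.0304. Cd3g, its close relative, stood at 100 and 42.2 FPKM at 10 and 7 weeks (log2 1.25 ± 0.81, q = 0.13) and Cd3e had a log2 fold change of 0.50 ± 0.69 with q = 0.832. Values of 15 of the 16 members with at least 1 FPKM were higher at 10 weeks, and the list's median log2 fold change was 0.56, against 0.10 over all gene models at that level. Among all 20538 such gene models 57.0% had a higher value at 10 weeks.

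None of the 8 lineage genes of CD4 and CD8 cells passed, although all 8 values were higher at 10 weeks, with a median of 0.55. Cd8a, the CD8 alpha chain, stood at 98.2 FPKM at 10 weeks and 44.7 FPKM at 7 weeks (log2 1.14 ± 0.89, q = 0.415). Cd4 stood at 7.43 and 6.45 FPKM at 10 and 7 weeks, with q = 0.946. Ptprc, the pan-leukocyte phosphatase CD45, stood at 12.4 and 11.8 FPKM, with q = 0.984. The CD45 levels were thus close between the ages, and the CD3 and CD8 chain values were higher at 10 weeks.

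Lag3, an inhibitory receptor on activated T cells and natural killer cells, rose to 71.5 FPKM at 10 weeks, against 19.5 FPKM at 7 weeks (4:224443420-224451453; log2 1.87 ± 0.83, q = 0.00983). It was the 1 call among 8 regulatory and checkpoint genes tested. The cytotoxic and natural killer list had 1 rise of 14 tested, a median of 0.74 and 12 of 14 values higher at 10 weeks. That rise was Tyrobp, the signalling adaptor DAP12, at 162 FPKM at 10 weeks and 56.0 FPKM at 7 weeks (log2 1.53 ± 0.84, q = 0.0467). Tyrobp stood at only 11.7 and 12.7 FPKM in circulating T cells at 10 and 7 weeks, and which kidney cells carried it was not tested. Its genomic neighbour Hcst, the related adaptor DAP10, rose too, with 105 and 28.0 FPKM at 10 and 7 weeks (log2 1.90 ± 1.04, q = 0.0435), and it was chosen after its value was seen. Adjacent gene models may exchange reads, since the counting by strand is not stated. None of 10 tissue-resident and effector genes and none of 10 naive and homing genes tested passed, with medians of 0.29 and 0.22.

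Macrophage genes had 3 rises. Of 13 macrophage and dendritic genes tested, 3 rose and none fell, all 13 values were higher at 10 weeks and the median log2 fold change was 1.15. C1qb, a chain of complement C1q made by tissue macrophages, rose to 43.4 FPKM at 10 weeks, against 7.28 FPKM at 7 weeks (5:159008937-159014494; log2 2.57 ± 1.02, q = 0.00983). Gpnmb, a glycoprotein of lipid-handling macrophages, stood at 15.1 FPKM at 10 weeks and 4.49 FPKM at 7 weeks (log2 1.76 ± 0.80, q = 0.0255). Apoe, a lipid carrier, stood at 355 FPKM at 10 weeks and 146 FPKM at 7 weeks (log2 1.28 ± 0.64, q = 0.0331). Lyz2, the lysozyme of macrophages, did not pass at 260 and 126 FPKM (q = 0.21). Ncf1, the p47 subunit of the phagocyte NADPH oxidase, rose to 14.6 FPKM at 10 weeks, against 5.45 FPKM at 7 weeks (log2 1.42 ± 0.83, q = 0.0435), as the 1 call of 22 in its list.

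Other named rises stood at high levels. S100a6, a calcium-binding protein, was among the most expressed genes called, with 1502 FPKM at 10 weeks and 509.7 FPKM at 7 weeks (log2 1.56 ± 0.66, q = 0.00983). Ifi27l2b, the 1 rise among 18 interferon-stimulated genes tested, stood at 397 and 110 FPKM at 10 and 7 weeks (log2 1.86 ± 0.83, q = 0.00983). Its list had a median of 0.34, and Isg15 stood at 34.2 FPKM at 10 weeks and 25.3 FPKM at 7 weeks, with a q-value of 0.98.

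Red cell genes differed more between the ages than any other list described by its median. Of 7 erythroid and platelet genes tested, 2 rose and none fell, and the median over 8 members was 2.49. The beta-globin model, which carries the symbols Hbb and Hbb-b1, stood at 646 FPKM at 10 weeks and 75.0 FPKM at 7 weeks (log2 3.11 ± 1.03, q = 0.00983). Hba2, an alpha-globin gene, stood at 1333 FPKM at 10 weeks and 229 FPKM at 7 weeks (log2 2.54 ± 1.00, q = 0.0159). Its near-identical copy Hba1 stood at 2624 and 381 FPKM with q = 0.0912, and how the authors' counting split reads between the alpha-globin copies is uncertain. The membrane exchanger Slc4a1 stood at 10.5 and 10.8 FPKM at 10 and 7 weeks. Ahsp, the chaperone of alpha-globin, stood at 0.390 and 1.07 FPKM, so that neither was higher at 10 weeks. In blood, Slc4a1 stood at only 0.0262 and 0.0727 FPKM at 10 and 7 weeks, against 13.6 and 47.9 FPKM for Hba2. Whether the kidney level of Slc4a1 came from red cells was not tested.

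**Figure D2:**
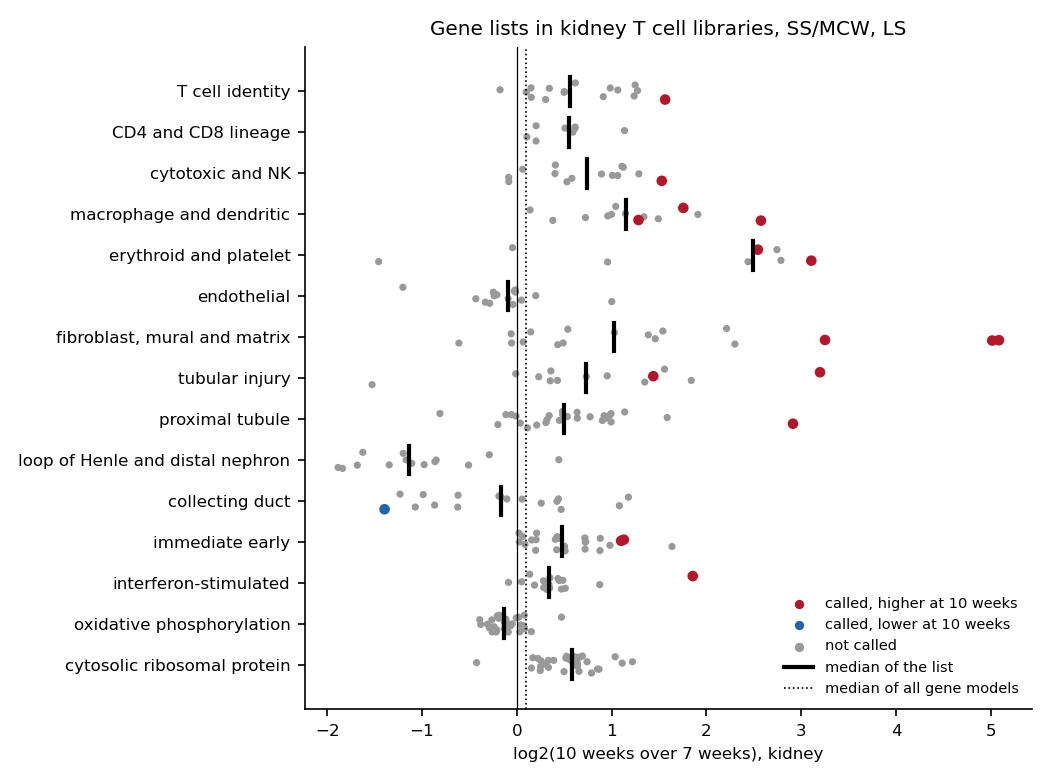
Points are members of 15 gene lists with at least 1 FPKM at 1 age and above 0 at both, placed by log2(10 weeks over 7 weeks) in kidney. Black bars are list medians and the dotted line is the median of all gene models, 0.10. The red cell, macrophage and matrix medians lie furthest to the right, and the loop of Henle median of -1.14 lies furthest to the left.

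Collagen, decorin and a fatty acid carrier were among the largest rises. Of 17 fibroblast, mural and matrix genes tested, 3 rose, none fell and 14 of 17 values were higher at 10 weeks, with a median of 1.03. Col3a1, the fibrillar collagen III chain, stood at 9.15 FPKM at 10 weeks and 0.270 FPKM at 7 weeks (9:51689491-51725414; log2 5.09 ± 1.60, q = 0.0255), and with a pseudocount of 1 FPKM its log2 fold change was 3.00. Fabp4, a fatty acid carrier of fat cells and capillary endothelium, stood at 64.1 FPKM at 10 weeks and 1.98 FPKM at 7 weeks (log2 5.01 ± 1.56, q = 0.0216). Dcn, the matrix proteoglycan decorin, stood at 12.3 and 1.30 FPKM at 10 and 7 weeks (log2 3.25 ± 1.28, q = 0.00983). Col1a1 and Col1a2 stood at 2.01 and 2.82 FPKM at 10 weeks, against 0.732 and 0.609 FPKM at 7 weeks, and did not pass. The complement genes C7 and C1s also rose, with 4.26 and 4.30 FPKM at 10 weeks and 0.229 and 0.709 FPKM at 7 weeks, and were chosen after their values were seen.

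The collagen and decorin levels were not shared by the other 10-week groups. Col3a1 stood at 0.476 FPKM in SS/MCW HS kidneys, 0.304 FPKM in SS/CRL LS kidneys and 0.724 FPKM in SS/CRL HS kidneys. These levels lay above the 0.270 FPKM of SS/MCW LS kidneys at 7 weeks and far below their 9.15 FPKM at 10 weeks. Dcn stood at 2.36, 4.07 and 4.81 FPKM in the same 3 groups. A gene model with the symbol 9330182L06Rik had the largest called rise, 26.3 FPKM at 10 weeks and 0.246 FPKM at 7 weeks (log2 6.74 ± 3.62, q = 0.00983), and it stood between 1.39 and 5.98 FPKM in those groups. These levels come from tables that were scaled separately. For calls with a symbol and above 0, the 10-week SS/MCW LS levels used here were between 0.995 and 1.00 times those in the salt table.

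No endothelial gene passed of 15 tested. Values of 12 of 15 were lower at 10 weeks, and the log2 fold changes ran from -1.20 to 1.00 with a median of -0.09. Pecam1, the junction protein CD31, stood at 34.0 FPKM at 10 weeks and 29.6 FPKM at 7 weeks, and Esam, another endothelial adhesion molecule, at 82.7 and 88.2 FPKM. None of 9 podocyte genes tested passed.

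The gene with the largest test statistic of all calls, 3.64, was a marker of tubular injury. Havcr1 encodes KIM-1, a surface receptor induced in injured proximal tubules, and stood at 23.2 FPKM at 10 weeks and 2.53 FPKM at 7 weeks (10:31644751-31668392; log2 3.20 ± 0.88, q = 0.00983). Lcn2 encodes the siderophore binder NGAL, made by injured tubules and by neutrophils, and stood at 173 FPKM at 10 weeks and 63.9 FPKM at 7 weeks (log2 1.44 ± 0.63, q = 0.00983). These were the 2 rises among 13 injury genes tested, with none fallen, 11 of 13 values higher and a median of 0.73. Spp1, which encodes osteopontin, stood at 8753 and 2974 FPKM at 10 and 7 weeks without passing (q = 0.79). Clu, also on the list, was level at 317 and 320 FPKM.

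Of 28 proximal tubule genes tested, 1 rose and none fell, 23 of 28 values were higher at 10 weeks and the median was 0.50. Slc6a19, the neutral amino acid carrier of the brush border, stood at 21.1 FPKM at 10 weeks and 2.80 FPKM at 7 weeks (1:33624550-33644920; log2 2.91 ± 1.04, q = 0.0159). Aqp1, a water channel also found in the thin descending limb, stood at 1959 and 653 FPKM without passing (q = 0.89). Slc34a1, the main phosphate carrier, stood at 558 and 641 FPKM at 10 and 7 weeks. Cyp2e1, which oxidises ethanol and small solvents, rose to 54.6 FPKM at 10 weeks, against 21.3 FPKM at 7 weeks (log2 1.36 ± 0.67, q = 0.00983).

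Outside the lists, 3 enzymes of amino acid breakdown that rose are named here, chosen after their values were seen. Hpd, of tyrosine breakdown, stood at 438 FPKM at 10 weeks and 177 FPKM at 7 weeks (log2 1.31 ± 0.65, q = 0.00983). Haao, of tryptophan breakdown, stood at 187 and 72.6 FPKM at 10 and 7 weeks (q = 0.0331), and Bhmt, which remethylates homocysteine, at 34.3 and 14.0 FPKM (q = 0.0216). Hpd reached 1257 FPKM in SS/CRL LS kidneys and 517 FPKM in SS/CRL HS kidneys, above both SS/MCW LS ages.

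Most loop of Henle and distal nephron genes had lower values at 10 weeks, without passing. None of its 14 genes tested passed in either direction, 13 of 14 values were lower at 10 weeks and the median log2 fold change was -1.14. Slc12a1, the sodium-potassium-chloride cotransporter that loop diuretics block, stood at 445 FPKM at 10 weeks and 1131 FPKM at 7 weeks (log2 -1.35 ± 2.07, q = 0.81), and Umod had a log2 fold change of -1.84 ± 1.67 with q = 0.538. Cldn16, a paracellular magnesium pore, stood at 80.7 and 174 FPKM (q = 0.053). Their summed level was 5630 FPKM at 10 weeks and 18464 FPKM at 7 weeks, and 1587 and 3995 FPKM without Umod. Calb1, of the distal convoluted tubule, was the 1 member with a higher value at 10 weeks, 44.3 and 32.6 FPKM.

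Among the falls that passed the test was Gp2. It encodes a protein related to uromodulin, lies next to Umod and stood at 14.8 FPKM at 10 weeks and 49.1 FPKM at 7 weeks (1:196108604-196126957; log2 -1.73 ± 0.85, q = 0.0159). Umod is far more abundant and adjoins it, and whether reads were shared between them was not tested. The unnamed model MSTRG.27492, 91 bp from the thiazide-sensitive cotransporter gene Slc12a3, fell to 163 FPKM at 10 weeks, against 418 FPKM at 7 weeks (log2 -1.35 ± 0.72, q = 0.0331). Slc12a3 itself stood at 38.2 and 123 FPKM without passing (q = 0.25). Irx1 and Irx2, homeobox factors of the developing nephron's middle segments, fell to 57.5 and 23.8 FPKM at 10 weeks, against 129 and 53.2 FPKM at 7 weeks (q = 0.0365 and 0.0304), and were chosen after their values were seen.

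Wfdc1, Sfrp2 and Ptgs2 had the largest called falls above 0 at both ages. Wfdc1, a secreted protein with a protease inhibitor fold, stood at 5.84 FPKM at 10 weeks and 35.5 FPKM at 7 weeks (19:63061865-63080767; log2 -2.61 ± 0.94, q = 0.00983). Sfrp2, a secreted WNT antagonist, stood at 11.3 FPKM at 10 weeks and 63.0 FPKM at 7 weeks (2:202136232-202143777; log2 -2.48 ± 0.75, q = 0.00983). Ptgs2, the inducible cyclooxygenase COX-2 that the macula densa and thick limb express, stood at 4.14 FPKM at 10 weeks and 17.9 FPKM at 7 weeks (13:72316369-72323056; log2 -2.11 ± 0.79, q = 0.00983). Sostdc1, an antagonist of BMP and WNT signals in the distal nephron, stood at 168 and 447 FPKM at 10 and 7 weeks (q = 0.0467). Cxcl12, a chemokine that binds CXCR4, was the 1 call of 13 cytokines and chemokines tested, with 101 FPKM at 10 weeks and 262 FPKM at 7 weeks (log2 -1.37 ± 0.84, q = 0.0255). In that list 13 of 15 values were higher at 10 weeks and the median was 0.71.

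Both cyclooxygenase genes were called, in opposite directions. Ptgs1, the constitutive COX-1 of the collecting duct and platelets, stood at 17.8 FPKM at 10 weeks and 6.25 FPKM at 7 weeks (log2 1.51 ± 0.70, q = 0.00983), and it was chosen after its value was seen. Ptgs2 was below its 7-week level in every other kidney group too, with 0.306 FPKM in SS/MCW HS, 1.49 FPKM in SS/CRL LS and 0.0336 FPKM in SS/CRL HS kidneys. All 26 falls with a symbol and above 0 shared this, and they were chosen by the same 7-week values.

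Further falls were spread over membrane, adhesion and enzyme genes. Cdh3, the adhesion protein P-cadherin, stood at 8.78 FPKM at 10 weeks and 29.7 FPKM at 7 weeks (log2 -1.76 ± 0.81, q = 0.00983). Car15, a membrane-bound carbonic anhydrase, stood at 157 and 517 FPKM (log2 -1.72 ± 0.80, q = 0.0216), and GCGR, the glucagon receptor, at 54.1 and 163 FPKM (log2 -1.59 ± 0.71, q = 0.00983). Inpp5j, a phosphoinositide phosphatase, stood at 24.1 and 78.7 FPKM, and Pkdcc, a secreted tyrosine kinase, at 19.4 and 60.1 FPKM. The symbols RGD1305645 (64.3 FPKM at 10 weeks and 210 FPKM at 7 weeks) and Ly6i (113 and 286 FPKM) were also among the named falls.

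The collecting duct list split within itself. Of 17 genes tested, 1 fell, none rose, and the median was -0.17. Scnn1a, the alpha subunit of the epithelial sodium channel, stood at 18.2 FPKM at 10 weeks and 47.9 FPKM at 7 weeks (4:224853954-224877152; log2 -1.40 ± 0.65, q = 0.00983). The beta and gamma subunits Scnn1b and Scnn1g were nearly level, at 8.41 and 5.66 FPKM at 10 weeks and 8.09 and 6.35 FPKM at 7 weeks. The water channels Aqp2 and Aqp3 had higher values at 10 weeks, 156 and 42.4 FPKM, against 68.9 and 20.0 FPKM at 7 weeks, both with q = 0.074.

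Outside that list, Slc14a2 and Fxyd4 rose. Slc14a2 encodes the urea transporters of the inner medullary collecting duct and thin descending limb, and it stood at 67.3 FPKM at 10 weeks and 10.1 FPKM at 7 weeks (log2 2.74 ± 0.76, q = 0.00983). Fxyd4, the corticosteroid-induced regulator of the sodium pump in the collecting duct, stood at 76.7 and 21.4 FPKM at 10 and 7 weeks (q = 0.0397), and was chosen after its value was seen. Slc6a6, the taurine carrier that osmotic stress induces, rose to 82.0 FPKM at 10 weeks, against 33.4 FPKM at 7 weeks (log2 1.30 ± 0.67, q = 0.0331), as the 1 call of 7 osmotic response genes, all 7 of which had higher values at 10 weeks (median 0.72).

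Genes that respond to tissue handling and stress were also tracked. Of 24 immediate early genes tested, 2 rose and none fell, and all 24 values were higher at 10 weeks, with a median of 0.48. Atf3, a stress-induced repressor, stood at 66.1 FPKM at 10 weeks and 30.2 FPKM at 7 weeks (log2 1.13 ± 0.64, q = 0.0365), and KLF6, an injury-induced zinc finger factor, at 51.0 and 23.8 FPKM (log2 1.10 ± 0.56, q = 0.0467). Fos stood at 276 and 140 FPKM without passing. The part of tissue handling in the comparison was not tested. None of 14 heat shock, 11 unfolded protein response or 11 glucocorticoid target genes tested passed.

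Metabolic and growth lists held no further calls. None of 34 cytosolic ribosomal protein genes passed, but 33 of 34 values were higher at 10 weeks (median 0.58). None of 35 oxidative phosphorylation genes passed, and 26 of 35 values were lower (median -0.13). None of 26 cell cycle genes, 24 fatty acid oxidation genes, 18 glycolysis genes or 18 sterol synthesis genes tested passed, with medians of -0.26, 0.18, -0.08 and -0.20. None of 6 MHC class II, 15 circadian or 5 B cell genes passed either.

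Many calls lay on short models with no symbol. Of the 202 calls, 87 carried no symbol, and 61 were listed at 0 at 1 age, 35 of them at 7 weeks and 26 at 10 weeks. Of those 61, 59 had no symbol and their median length on the genome was 376 bp, against 21078 bp for calls with a symbol. Without the 61, 141 calls were left. Of the 61, MSTRG.23275 had the highest level, and it stood at 33.4 FPKM at 10 weeks and was listed at 0 at 7 weeks, and MSTRG.49734 was listed at 0 at 10 weeks and stood at 17.0 FPKM at 7 weeks.

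Some of these models lay beside known genes. Of the 87, 40 lay within 5 kb of a model with a symbol, and 24 of those had the direction of that neighbour. For 2 of the 40 the neighbour was called too. The matching share over models that were not called was not computed, so nothing is read from the 24. MSTRG.29880 lay 421 bp from Fst, the activin-binding protein follistatin, and both rose, the model to 751 FPKM at 10 weeks, against 200 FPKM at 7 weeks, and Fst to 453 FPKM, against 157 FPKM. MSTRG.29568 lay 1972 bp from Serf1, which rose to 56.2 FPKM at 10 weeks, against 4.38 FPKM at 7 weeks (log2 3.68 ± 1.40, q = 0.0159), but the model itself was listed at 0 at 10 weeks and stood at 14.2 FPKM at 7 weeks. MSTRG.15957 lay 429 bp from Ptprc and stood at 31.7 FPKM at 10 weeks, against a listed 0 at 7 weeks, although Ptprc was level. The most expressed fall was MSTRG.19650, 299 bp from Plau, with 2094 FPKM at 10 weeks and 7001 FPKM at 7 weeks (log2 -1.74 ± 0.69, q = 0.00983).

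The levels of the calls with a symbol and above 0 were set beside those of the other kidney groups, 5 in all. These calls were chosen by the same 7-week values, so the counts are a description and nothing is read from them. Of the 26 falls with a symbol and above 0, all 26 had their highest level of the 5 groups at 7 weeks. Of the 87 rises with a symbol and above 0, 73 (83.9%) had their lowest level at 7 weeks. Among all 4345 models with a symbol, at least 5 FPKM and a lower value at 10 weeks, 47.5% were highest at 7 weeks. Among the 5318 with a higher value at 10 weeks, 35.5% were lowest at 7 weeks. Those models were not limited to changes as large as those of the calls. The 10-week SS/MCW LS group was the highest of the 5 for 25 of the 87 rises and the lowest for none of the 26 falls. Of 14 loop of Henle and distal genes, 10 were highest at 7 weeks, where Umod stood at 14468 FPKM and the other 3 groups at 10 weeks lay between 1069.8 and 6148 FPKM. This was not particular to that list. At 7 weeks 17 of 24 immediate early and 10 of 14 heat shock genes were lowest, and 21 of 35 oxidative phosphorylation genes were highest. Of 6 MHC class II genes, 0 were highest and 0 lowest at 7 weeks. The 7-week group was the only one of its age, so age and the handling of those pools cannot be told apart.

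**Figure D3:**
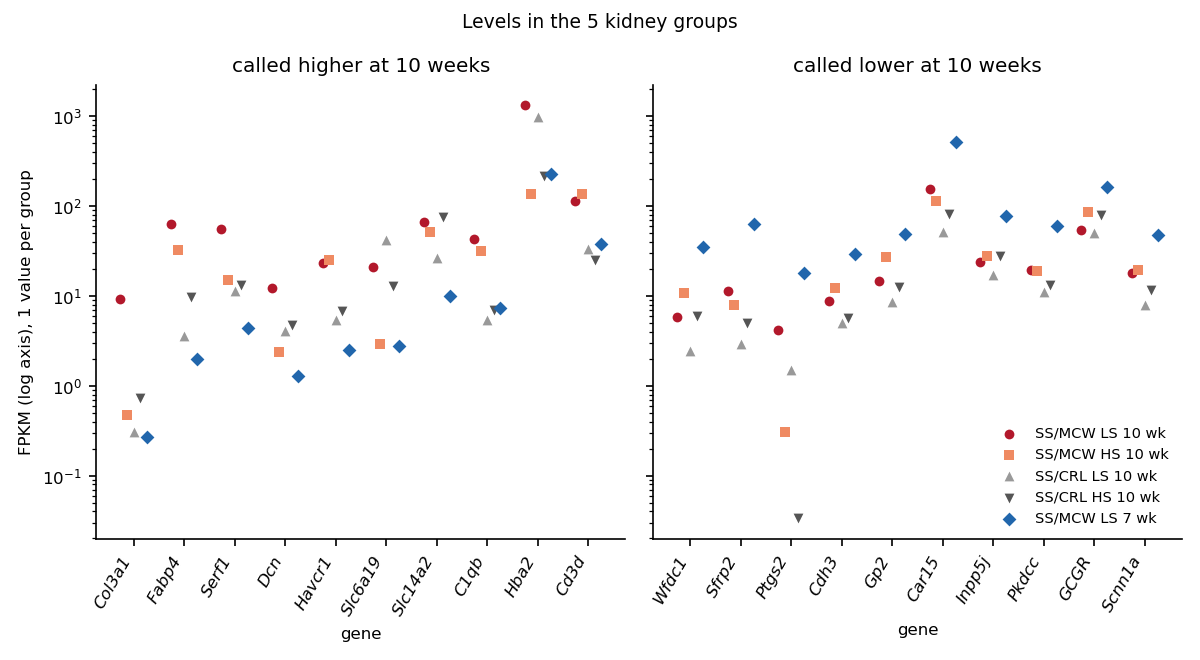
FPKM of 10 genes called higher at 10 weeks and 10 called lower, on a log axis, with 1 value for each of the 5 kidney groups. Within each gene the 10-week SS/MCW LS group is drawn first and the 7-week group last. The 7-week diamonds are the highest point for all 10 falls, and the Col3a1 level of 9.15 FPKM at 10 weeks stands above the other 4 groups.

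Some of the rises differed among the 10-week groups. Globin levels were high in both LS groups at 10 weeks and lower in both HS groups. Hba2 stood at 1333 FPKM in SS/MCW LS and 977 FPKM in SS/CRL LS kidneys, and at 137 and 217 FPKM in the matching HS kidneys. Havcr1 stood at 25.0 FPKM in SS/MCW HS, 5.46 FPKM in SS/CRL LS and 6.84 FPKM in SS/CRL HS kidneys, so that both SS/MCW groups at 10 weeks lay above the others. Slc6a19 stood at 2.92 FPKM in SS/MCW HS kidneys, near its 7-week level, and at 42.3 FPKM in SS/CRL LS kidneys. No test of these levels was made here.

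Circulating T cells of the same ages were compared in the same way. In blood 331 of 17103 gene models tested (1.94%) were called, 174 (1.02%) higher and 157 (0.918%) lower at 10 weeks. Of the 146 models that rose in kidney, 1 also rose in blood and 6 fell there, and none of the 56 that fell in kidney was called in blood. Only 56 of the 202 kidney calls were tested in blood, and most of the models that fell in kidney were not tested there. The named models among the 6 were Hba2, the beta-globin model, Crip1 and Psmb10. Crip1, a LIM domain protein, stood at 514 and 171 FPKM in kidney at 10 and 7 weeks and at 463 and 774 FPKM in blood. Psmb10, an immunoproteasome subunit, stood at 106 and 42.8 FPKM in kidney and at 132 and 200 FPKM in blood at 10 and 7 weeks.

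The globins and Pf4 had higher values at 10 weeks in kidney and lower values at 10 weeks in blood. In kidney, Slc4a1 was nearly level and Ahsp had a lower value at 10 weeks. Their values in blood were too low to read a direction, 0.0262 and 0.0727 FPKM for Slc4a1 and 0.0292 and 0.186 FPKM for Ahsp. Of 8 erythroid and platelet genes tested in blood, 5 fell at 10 weeks, none rose and the median log2 fold change was -1.65. Hba2 stood at 13.6 FPKM in blood at 10 weeks and 47.9 FPKM at 7 weeks, with q = 0.0069. Pf4, the platelet chemokine, stood at 41.3 and 7.62 FPKM in kidney at 10 and 7 weeks (q = 0.212) and at 25.9 and 96.9 FPKM in blood (q = 0.0069). The test of the difference between the age effects, a z with standard errors from the test statistics and Benjamini-Hochberg adjustment over 12218 gene models, passed for 1 unnamed model (0.00818%). It gave q = 0.194 for Hba2, with a difference of 4.36 on the log2 scale, and q = 0.114 for the beta-globin model, with 4.72. When the deposited p-values gave the standard errors, 42 gene models passed, all with the kidney effect above the circulating one. Among them were both globin models, Pf4, Cd3d, Lag3, Apoe, S100a6 and Ptgs1. Most of the models that fell in kidney were not tested in blood and could not enter this test. Ribosomal protein genes had a median of 0.58 in kidney and -0.40 in blood. T cell identity genes had a median of 0.56 in kidney and -0.10 in blood, where none of 17 was called.

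**Figure D4:**
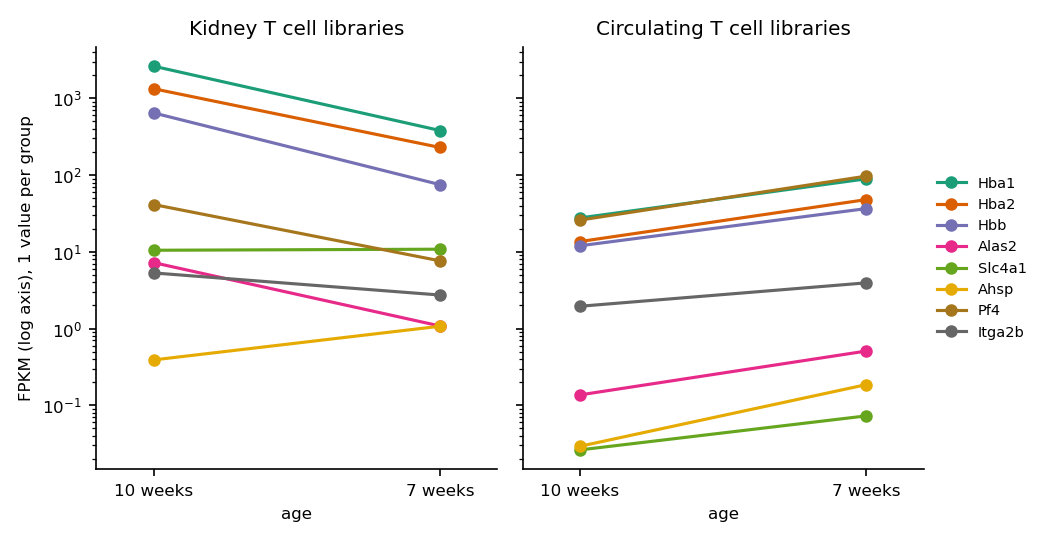
FPKM on a log axis of 8 red cell and platelet genes at 10 weeks (left) and 7 weeks (right) in kidney and in circulating T cell libraries, 1 value per group. In blood all 8 values are lower at 10 weeks, but those of Slc4a1, Ahsp and Alas2 lie below 1 FPKM at both ages. In kidney 6 are higher at 10 weeks, Ahsp is lower and Slc4a1 is nearly level. Hba2 is an example of the 6, with 1333 and 229 FPKM in kidney and 13.6 and 47.9 FPKM in blood.

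Promoters of the called genes were read from RefSeq (GRCr8) to show their sequence. Of 87 risen genes with 1 symbol, 59 had an entry running from 250 bases before to 50 after the start, and of 27 fallen genes 21 did. Their median GC content was 57.3% for risen and 65.0% for fallen genes, against 52.3% over 27457 promoters. On either strand, the GC box GGGCGG was in 29 (49.2%) of the risen, 14 (66.7%) of the fallen and 34.9% of all promoters. TATAAA was in 12 (20.3%), 3 (14.3%) and 14.3% of them, CCAAT in 14 (23.7%), 9 (42.9%) and 37.7%, and the AP-1 site TGACTCA in 2 (3.39%), 0 and 4.53%. GGGCGG copies may overlap each other. The share of all promoters includes genes that the kidney libraries did not express. The 2 largest rises and 2 largest falls with an entry are shown 5′ to 3′ with matches to the 4 motifs in capitals, where Havcr1 and Sfrp2 have none.
Serf1 (chr2:33209751-33210050, + strand): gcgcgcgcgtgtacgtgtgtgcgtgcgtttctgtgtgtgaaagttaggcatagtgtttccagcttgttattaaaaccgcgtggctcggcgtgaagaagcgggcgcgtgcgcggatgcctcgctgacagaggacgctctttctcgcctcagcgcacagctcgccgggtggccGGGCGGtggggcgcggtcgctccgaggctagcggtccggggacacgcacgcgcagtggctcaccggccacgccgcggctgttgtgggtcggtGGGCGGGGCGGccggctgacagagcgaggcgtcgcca
Havcr1 (chr10:31629528-31629827, + strand): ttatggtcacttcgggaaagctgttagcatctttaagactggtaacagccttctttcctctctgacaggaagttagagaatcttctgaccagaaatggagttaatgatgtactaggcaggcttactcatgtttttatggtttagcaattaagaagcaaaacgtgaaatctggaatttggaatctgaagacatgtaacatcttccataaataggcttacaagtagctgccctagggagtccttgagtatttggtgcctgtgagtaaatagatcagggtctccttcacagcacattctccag
Sfrp2 (chr2:171387286-171387585, + strand): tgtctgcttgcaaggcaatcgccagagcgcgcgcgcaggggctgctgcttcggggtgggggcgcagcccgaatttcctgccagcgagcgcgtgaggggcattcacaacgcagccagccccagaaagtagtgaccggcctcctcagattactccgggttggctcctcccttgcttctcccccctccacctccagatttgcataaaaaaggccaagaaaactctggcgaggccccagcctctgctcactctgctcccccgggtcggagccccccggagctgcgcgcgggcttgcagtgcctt
Ptgs2 (chr13:64713813-64714112, + strand): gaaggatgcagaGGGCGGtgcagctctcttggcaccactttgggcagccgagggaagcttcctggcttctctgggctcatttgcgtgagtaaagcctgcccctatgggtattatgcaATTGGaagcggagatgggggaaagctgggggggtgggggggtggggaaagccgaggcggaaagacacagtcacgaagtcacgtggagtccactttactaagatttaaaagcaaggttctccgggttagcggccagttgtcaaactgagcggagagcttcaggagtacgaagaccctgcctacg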

How the data were processed

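RNA of isolated T cells was sequenced by the submitters. Trimming by Trim Galore 0.2.5 and cutadapt, alignment by TopHat2 2.1.1 (TopHat is also listed), Cufflinks 2.2.1, Cuffdiff and build rn5 are named per the submitters' processing notes. The authors deposited Cuffdiff tables with 1 FPKM value for each group, a test statistic (a score), a p-value and a q-value, all per the file headers. The p-values are those of the authors' Cuffdiff test of a difference between groups. The spread between pools that it used cannot be checked, because the pools are not seen singly here. Depth and library values are unknown here, so no interval from counts is given.

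Log2 fold changes of 10 over 7 weeks were computed from the deposited FPKM, since a spreadsheet had altered the deposited fold change column. No pseudocount was used, and a group listed at 0 gives no fold. A call needed q under 0.05 and status OK. The differences between kidney and circulating age effects were tested by a z with standard errors from the test statistic. That script was checked on data simulated with those same standard errors. The check covers its arithmetic and cannot show whether the standard errors suit these data. Models with very small kidney standard errors, MSTRG.59259 among them, were left out of the simulation. The 35 gene lists have 628 members, of which 596 were matched. Members and lists were chosen with earlier results of these data known. A gene was named as 1 of the 10 largest rises or 10 largest falls with at least 5 FPKM at the higher age, as 1 of up to 5 called members of a list, 1 of up to 4 most expressed members of a list without a call, as Cd3e, Cd4, Cd8a or Ptprc, as 1 of the 5 most expressed calls in each direction, as listed at 0 at 1 age, or for its difference from blood. A list's median uses members with at least 1 FPKM at the higher age. Alternatives were a q under 0.01, filters at 1 and 5 FPKM, a normal p, recentring, a pseudocount of 1, the mean in place of the median, other tables for the same levels and leaving out models called higher in kidney than in blood at both ages. Calls without models listed at 0 and calls with a symbol only were added after seeing the data. Some genes that meet this rule are not named in the text. The tools were numpy 2.4.6, matplotlib 3.10.9, scipy 1.17.1 and pandas 2.3.3 in Python 3.11.15.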

Additional observations from a re-analysis of the deposited data

Results flagged for a closer look

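The model MSTRG.59259, a 69 bp stretch of the mitochondrial genome (M:15347-15415 in rn5), was the 1 gene model that passed the test of a difference between the kidney and circulating effects of age. Its kidney minus circulating difference was 4.57 on the log2 scale. It stood at 16250 FPKM in kidney at 10 weeks and 2950 FPKM at 7 weeks, and at 247 and 1064 FPKM in blood at the same ages. Its kidney standard error from the test statistic was 0.0057, while its deposited p in kidney was 0.238, and it did not pass with standard errors from the deposited p. Without this model the z values of the difference had an SD of 0.542 over the others, and with it 4.94.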

How the results depend on the processing

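The 202 kidney calls (146 higher and 56 lower at 10 weeks) became 96 (76 and 20) at q under 0.01, and 115 (89 and 26) with at least 1 FPKM at both ages and the p adjusted again. They became 7 (6 and 1) with a normal p of the test statistic, and 7 (6 and 1) with recentring and a normal p. None of those 7 was among the 202, and their lowest deposited p was 0.238. There were 128 (90 higher) without models higher in kidney than in blood at both ages, and 115 (88 and 27) with a symbol only. Without models listed at 0, 30 fell. With at least 1 FPKM at the higher age the counts did not change. The 331 circulating calls (174 higher and 157 lower) became 124 (63 and 61) at q under 0.01 and 8 (2 and 6) with a normal p. The test of the difference between tissues, which most models that fell in kidney could not enter, passed for 1 model. With standard errors from the deposited p it passed for 42, all 42 higher in kidney. The cause of these shifts was not tested. Medians of all 35 lists kept their sign without the filter, with a pseudocount of 1, as means, from the tables of kidney against blood and after recentring. Of the named models, 43 lost their call under a normal p and none reversed. Because the statistic did not share the scale of the deposited p, a normal p cannot decide whether those calls hold. No paired analysis was possible because each table gives 1 value for a group and pool numbers do not link the ages, and for the same reason no pool could be left out. Depth is unknown, so what it limits cannot be stated.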

Other observations

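Further called genes, chosen after their values were seen, belong to no list described above. Ghrhr, the receptor for growth hormone-releasing hormone, stood at 29.8 FPKM at 10 weeks and 8.96 FPKM at 7 weeks. Wnt7b, a WNT ligand of the collecting duct, stood at 25.4 and 10.2 FPKM at 10 and 7 weeks. Among the falls, Car4, a membrane-bound carbonic anhydrase, stood at 91.1 FPKM at 10 weeks and 199 FPKM at 7 weeks, and Sim2, a basic helix-loop-helix factor, at 18.0 and 39.0 FPKM.

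Of calls with a symbol, 62 of 115 (53.9%) were called higher in kidney than in circulating cells at both ages, against 27.8% of all tested models with a symbol. The mitochondrial model MSTRG.59260 (M:15665-16212) rose to 3442 FPKM at 10 weeks, against 720 FPKM at 7 weeks, and the unnamed model MSTRG.18303 to 1566 FPKM, against 175 FPKM.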
